A study of Vitis vinifera with 40 samples.

Results

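The flavonoid hydroxylases examined here are 10 listed rows of a grapevine table of 29971 open reading frames. They comprise 2 flavonoid 3'-hydroxylase (F3'H) genes on chromosome 17, VIT_17s0000g07200 and VIT_17s0000g07210, and 8 flavonoid 3',5'-hydroxylase (F3'5'H) copies on chromosome 6. The F3'5'H copies are VIT_06s0009g02810, VIT_06s0009g02830, VIT_06s0009g02840, VIT_06s0009g02860, VIT_06s0009g02880, VIT_06s0009g02920, VIT_06s0009g02970 and VIT_06s0009g03010. All 10 rows were found in the table. The names came with the list of members, since the table holds identifiers only, and no annotation of this genome build was at hand to check them.

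Both enzymes are cytochrome P450 proteins that add hydroxyl groups to the B ring of flavonoids. F3'H adds a hydroxyl group at the 3' position and opens the way to quercetin and cyanidin compounds, whereas F3'5'H adds hydroxyl groups at the 3' and 5' positions and opens the way to myricetin and delphinidin compounds. The balance between these enzymes sets the hydroxylation pattern of flavonols, anthocyanins and tannins in grapevine, where the F3'5'H genes form a tandem array.

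The study followed somatic embryogenesis, in which plants regenerate from somatic cells without fertilization, in *Vitis vinifera* "Malvasia Istriana". Cultures were started from anthers of this single cultivar, and a sample held between 50 and 70 embryos. Cultures at early induction (EI), at the pre-globular stage (PG) and at the globular stages (G1 and G2) grew with auxin in constant dark. Heart (H), torpedo (T1, T2) and cotyledonary 1 (C1) embryos grew without hormones in constant dark, and cotyledonary 2 (C2) embryos without hormones in long day. Seedlings (S), seedlings that had formed an epicotyl (EP) and juvenile plants (JP) grew with gibberelin in long day. By the study's methods the induction medium also held the cytokinin BAP, and the germination medium also held the auxin IAA. Stage, medium and light therefore cannot be told apart. C2 and EP had 5 libraries each and every other stage had 3, which makes 40 libraries in all.

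The values were raw read counts, and levels are given as CPM, the reads of a gene relative to all reads of its library, scaled with TMM factors, which correct the library totals for differences in composition. Total counts lay between 13774534 and 68058022 per library, with a median of 23096350. The EP libraries fell apart: in EP replicates 1, 2 and 3 the TMM factor was 0.406 to 0.438 and the 10 most abundant genes took 53.8% to 55.1% of the counts, whereas in EP replicates 4 and 5 the factor was 0.933 and 1.19 and these genes took 24.2% and 15.6%. The bases per read, as given by the base and read totals in the study's mapping list, differ between C2 and EP and the other stages. The sources used here give no reason for this, and it cannot be told apart from stage there. LHCA2 (VIT_01s0010g03620), which encodes a light-harvesting protein of photosystem I and served as a measure of greening, stayed between 0 and 1.08 CPM in the 24 dark libraries. It reached 1.28 to 11.6 CPM in C2, 50.8 to 100.4 CPM in S, 569 to 700.03 CPM in EP and 493.3 to 1203 CPM in JP.

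The F3'H genes were read in every library and at every stage, were higher at H than at the stages on either side, and reached their highest levels, with TMM factors, in the plants grown in long day. The F3'5'H copies were close to the limit of detection in nearly all dark libraries and their summed level was 6.63 higher on the log2 scale in JP than in C2. All 10 members differed over the 12 stages in a test of all libraries (edgeR quasi-likelihood F test with Benjamini-Hochberg adjustment, highest adjusted p = 1.86e-09 for VIT_06s0009g02920), as did 94.7% of all genes tested, so that this count says little about the hydroxylases.

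In the cultures on auxin, VIT_17s0000g07200 stood at 10.98, 27.8 and 22.7 CPM in EI, at 8.96, 20.9 and 15.6 CPM in PG, at 16.9, 5.72 and 13.04 CPM in G1 and at 16.7, 16.1 and 13.9 CPM in G2. These stages overlapped. VIT_17s0000g07210 lay between 1.48 and 5.33 CPM in the same libraries. Neither gene passed the test between EI and PG, between PG and G1 or between G1 and G2 (edgeR quasi-likelihood test, 0 of 2 members tested in each), where 6.78%, 25.2% and 0.676% of all genes tested did. Neither had an unadjusted p below 0.05 in these 3 comparisons, and DESeq2 called neither. Without G1 replicate 2, VIT_06s0009g02860 was tested from G1 to G2 and passed, which made the count 1.

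At the heart stage, where the embryos had been moved off auxin, both F3'H genes rose, together with 1 of the F3'5'H copies. VIT_17s0000g07200 stood at 32.4, 38.5 and 28.8 CPM in H, above all G2 libraries, and rose by 1.04 on the log2 scale (standard error 0.13, edgeR quasi-likelihood test, adjusted p = 0.00106). VIT_17s0000g07210 stood at 7.44, 7.18 and 6.38 CPM in H against 4.10, 3.61 and 2.80 CPM in G2, a rise of 0.95 (standard error 0.16, adjusted p = 0.00323). The copy VIT_06s0009g02860 stood at 0.674, 0.699 and 0.672 CPM in H, that is 27, 26 and 30 reads, against 0.126, 0.159 and 0.0383 CPM in G2, that is 4, 4 and 1 reads. Its groups did not overlap, and it rose by 2.57 (standard error 0.39, adjusted p = 0.00204). This copy passed the filter on low counts only through its H libraries, so that it is not read against the background. These 3 members were the ones tested from G2 to H, a comparison in which 27.6% of all genes tested were called higher, 28.9% lower and 56.5% in either direction. The other 7 copies together gave 2, 4 and 5 reads in the H libraries.

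The rise was transient. In T1, VIT_17s0000g07200 was back at 13.1, 17.6 and 8.21 CPM, below every H library, and fell by 1.36 on the log2 scale (standard error 0.27, edgeR quasi-likelihood test, adjusted p = 0.0129). VIT_17s0000g07210 fell by 1.02 (standard error 0.28, adjusted p = 0.0332), to 4.11, 4.28 and 2.06 CPM. VIT_06s0009g02860 stood at 0.286, 0.476 and 0.178 CPM in T1, again below every H library, but missed the threshold (log2 change -1.12, standard error 0.37, adjusted p = 0.055). Thus 2 of the 3 members tested were called lower, in a comparison in which 14.2% of all genes tested were called lower and 17.5% higher. Without H replicate 1, 2 or 3 or T1 replicate 1 the call of VIT_17s0000g07210 was lost, as it was in one model of all libraries, whereas without T1 replicate 2 or with plain library totals all 3 members were called.

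T2 and C1 were uneven. VIT_17s0000g07200 stood at 26.7, 42.8 and 27.8 CPM in T2, above all T1 libraries, and at 19.6, 9.38 and 18.1 CPM in C1, below all T2 libraries. VIT_17s0000g07210 followed with 6.36, 10.6 and 6.11 CPM in T2 and 4.48, 2.15 and 3.90 CPM in C1. Neither difference was called by edgeR (0 of 2 members tested in each comparison, background 2.06% of genes from T1 to T2 and 0% from T2 to C1), although both genes had an unadjusted p below 0.05 in both. DESeq2 called 2 members from T1 to T2 and 0 from T2 to C1. Without T2 replicate 1, edgeR called 3 members from T1 to T2.

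**Figure D1:**
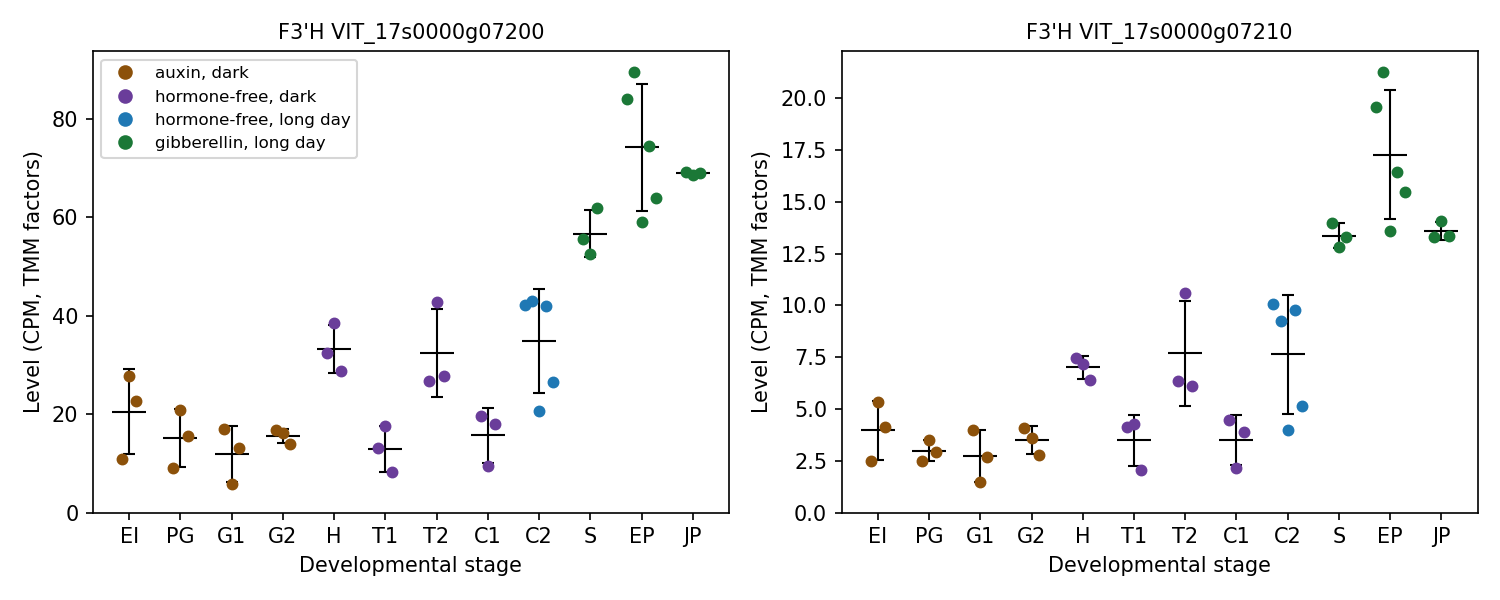
Level of each F3'H gene (CPM with TMM factors) in each library, by stage, with a point per library, a horizontal bar for the stage mean and an error bar for the SD (n = 5 for C2 and EP, 3 for the other stages). Both panels show the rise at H, the fall in T1, levels in T2 beside those of H, and the high levels in S, EP and JP. All S, EP and JP libraries of VIT_17s0000g07200 lie between 52.5 and 89.5 CPM.

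In long day both F3'H genes reached their highest levels with TMM factors. VIT_17s0000g07200 ranged from 20.6 to 42.9 CPM in C2 with a median of 42.1 CPM, and VIT_17s0000g07210 from 3.97 to 10.1 CPM with a median of 9.24 CPM. In VIT_17s0000g07200 every C2 library lay above every C1 library, and the rise was called (log2 change 1.19, standard error 0.32, edgeR quasi-likelihood test, adjusted p = 0.032). In VIT_17s0000g07210 C2 replicate 3 lay within the range of C1 (log2 change 1.15, standard error 0.38, adjusted p = 0.0571). The member count was 1 of 3 tested, with 9.22% of all genes tested called higher. It fell to 0 without C1 replicate 2 or 3, without C2 replicate 1, 2 or 4 or with the closest C2 replicates summed, and rose to 3 without C1 replicate 1. With plain library totals the change of VIT_17s0000g07200 was 0.43 (adjusted p = 0.252), while the median of all genes moved to -0.71, so that the difference from the median was 1.14.

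From C2 to S, VIT_17s0000g07200 rose to 55.6, 52.5 and 61.9 CPM, above every C2 library (log2 change 0.66, standard error 0.22, edgeR quasi-likelihood test, adjusted p = 0.0474). This call stood near the threshold and was lost without C2 replicate 3, 4 or 5 or any S replicate, without the filter on low counts, with the replicate number as a block and in one model of all libraries. VIT_17s0000g07210 stood at 14.0, 12.8 and 13.3 CPM in S, also above every C2 library, but missed the threshold (log2 change 0.77, standard error 0.28, adjusted p = 0.0623). In EP VIT_17s0000g07200 ranged from 59.0 to 89.5 CPM with a median of 74.4 CPM, and in JP it stood at 69.2, 68.5 and 68.9 CPM. Neither F3'H gene was called from S to EP (log2 changes 0.50 and 0.47, standard errors 0.22 and 0.23, edgeR adjusted p = 0.119 and 0.149) or from EP to JP (-0.17 and -0.40, standard errors 0.23 and 0.23, adjusted p = 0.699 and 0.341). With EP replicates 1, 2 and 3 alone, both F3'H genes were called higher in EP than in S.

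Ordered by mean level, VIT_17s0000g07200 ran from G1 (11.9 CPM) through T1, PG, G2, C1, EI, T2, H and C2 to S (56.6 CPM), JP (68.9 CPM) and EP (74.2 CPM). Neighbours in this order overlapped, except C2 with S and S with JP. The order of the upper stages depended on the scaling. With plain library totals H stood at 41.2 to 53.6 CPM, beside 38.2 to 47.9 CPM in S, 25.6 to 76.3 CPM in EP and 42.2 to 53.5 CPM in JP, so that H and the late stages were not separated. The ratio of the F3'H genes needs no scaling, and VIT_17s0000g07200 had 3.18 to 5.93 times the reads of VIT_17s0000g07210 in the 40 libraries, with a median of 4.39. The sources used here do not give how reads that match several copies were counted, and values of single copies within each family are uncertain to that extent.

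The F3'5'H copies were hardly read in the dark. The 24 dark libraries held 562268777 counts, of which VIT_06s0009g02860 took 265 reads, VIT_06s0009g02810 took 135 and VIT_06s0009g02840 took 114. The other 5 copies took between 18 reads (VIT_06s0009g02920) and 34 reads (VIT_06s0009g03010). VIT_06s0009g02860 had at least 1 read in all dark libraries but C1 replicate 2, whereas VIT_06s0009g02970 had none in 18 of them and VIT_06s0009g02880 none in 16. C1 replicate 2 was the single library with no F3'5'H read, which allows up to 0.642 reads per 100 F3'H reads (a limit set by 3 reads, counting error only).

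T2 replicate 2 stood out among the dark libraries. It held 233 F3'5'H reads and reads of all 8 copies, against 10 and 36 reads in the other T2 libraries. VIT_06s0009g02810 reached 2.70 CPM there, against 0 and 0.523 CPM in T2 replicates 1 and 3, and VIT_06s0009g02840 reached 2.23 CPM against 0.122 and 0.480 CPM. VIT_06s0009g02860 took 9.01% of the F3'5'H reads of this library. LAR1 (VIT_01s0011g02960), the leucoanthocyanidin reductase that makes catechin-type units of tannins, stood at 18.9 CPM there against 1.22 and 4.97 CPM, and both F3'H genes were at their highest dark level with TMM factors. LHCA2 stood at 0.205 CPM there, between the other T2 libraries.

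**Figure D2:**
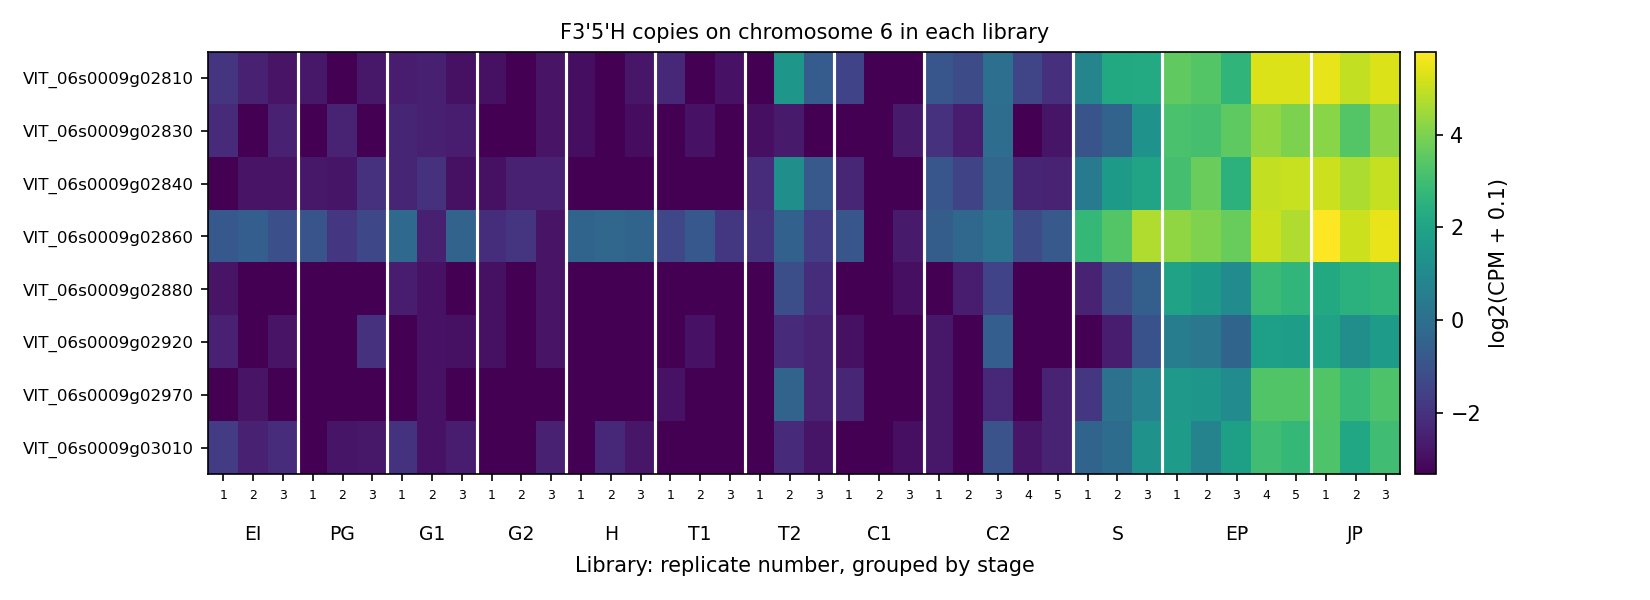
Level of the 8 F3'5'H copies in the 40 libraries as log2(CPM + 0.1), with libraries grouped by stage and numbered by replicate. The dark libraries lie near the bottom of the scale except VIT_06s0009g02860 and T2 replicate 2, C2 replicate 3 stands above the other C2 libraries, and EP replicates 4 and 5 lie with JP.

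In C2, the embryos brought into long day, the copies were still low. VIT_06s0009g02860 ranged from 0.319 to 1.02 CPM with a median of 0.541 CPM, which overlapped with C1 (0.448, 0 and 0.0570 CPM), and it was not called (log2 change 2.00, standard error 1.03, edgeR quasi-likelihood test, adjusted p = 0.175). It was the single copy with enough reads for this test. VIT_06s0009g02810 ranged from 0.133 to 0.916 CPM with a median of 0.332 CPM. C2 replicate 3 held 95 F3'5'H reads and the other C2 libraries 16 to 35.

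In the seedling 3 of the 8 F3'5'H copies rose, 1 was tested and not called, and the other 4 had too few reads to be tested. VIT_06s0009g02860 stood at 6.58, 10.05 and 26.3 CPM in S, above every C2 library, and rose by 4.44 on the log2 scale (standard error 0.51, edgeR quasi-likelihood test, adjusted p = 0.000919). VIT_06s0009g02810 stood at 1.69, 4.48 and 4.71 CPM, also above every C2 library (log2 change 2.98, standard error 0.61, adjusted p = 0.00853). VIT_06s0009g02840 stood at 1.26, 3.01 and 3.87 CPM against 0.0886 to 0.713 CPM in C2 (log2 change 2.94, standard error 0.70, adjusted p = 0.015). The fourth copy tested, VIT_06s0009g02830, stood at 0.422, 0.640 and 2.39 CPM, which overlapped with C2 replicate 3 at 0.866 CPM, and was not called (log2 change 2.16, standard error 1.09, adjusted p = 0.161).

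Together with VIT_17s0000g07200, 4 of the 6 members tested from C2 to S were called higher, against 16.1% of all genes tested (11.5% were called lower). Copies that were low in C2 entered the test through their S libraries, so that nothing is read from this count against the background. Without S replicate 3, which had the highest level of all 8 copies in S, the count was 2 and VIT_06s0009g02840 was no longer called, whereas without C2 replicate 1 or S replicate 1 it was 5. VIT_06s0009g02810 and VIT_06s0009g02860 were called in every alternative run. DESeq2 called 7 members.

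From S to EP, of the 10 members, all tested, 7 were called higher, against 16.1% of all genes tested, and all 7 were F3'5'H copies. Copies that were low in S entered this test through their EP libraries, so that nothing is read from this count against the background. VIT_06s0009g02880 stood at 0.0843, 0.320 and 0.581 CPM in S and at 3.70, 3.02, 2.01, 7.22 and 6.35 CPM in EP (log2 change 3.80, standard error 0.60, edgeR quasi-likelihood test, adjusted p = 0.00206). VIT_06s0009g02830 stood at 8.86, 8.41, 11.6, 19.6 and 15.97 CPM in EP and rose by 3.56 (standard error 0.56, adjusted p = 0.00208). In both genes every EP library lay above every S library.

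VIT_06s0009g02810 stood at 11.8, 10.001, 6.20, 39.99 and 39.5 CPM in EP, again above every S library (log2 change 2.61, standard error 0.66, edgeR adjusted p = 0.0164). The other copies called were VIT_06s0009g02840 (2.78, adjusted p = 0.00959), VIT_06s0009g02920 (3.74, 0.0103), VIT_06s0009g02970 (2.68, 0.0223) and VIT_06s0009g03010 (1.90, 0.0323). The copy that had led in S, VIT_06s0009g02860, was not called. It stood at 19.3, 16.4, 12.6, 33.6 and 26.1 CPM in EP, and S replicate 3 lay within this range (log2 change 0.69, standard error 0.43, adjusted p = 0.256).

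**Figure D3:**
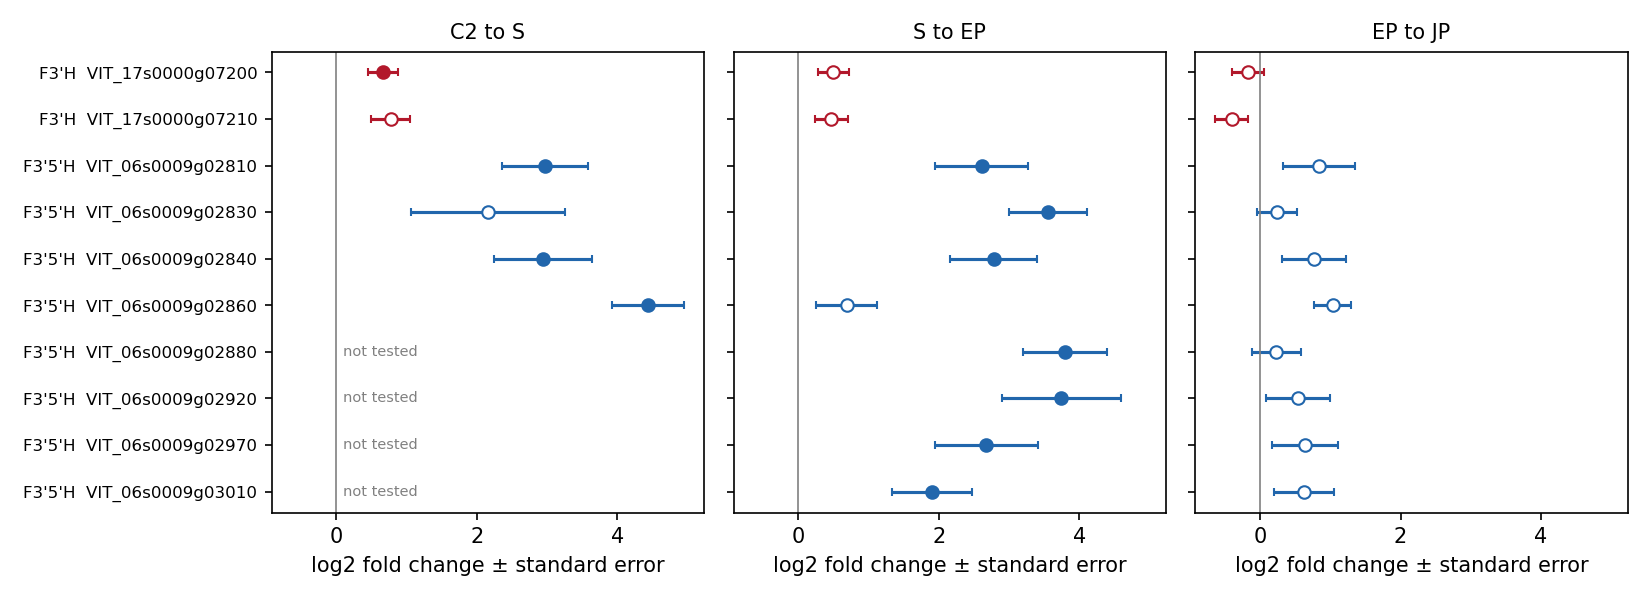
Log2 fold change with its standard error for each member from C2 to S, S to EP and EP to JP, in red for F3'H and in blue for F3'5'H, with filled points for adjusted p below 0.05 in the edgeR quasi-likelihood test. VIT_06s0009g02860 leads from C2 to S with 4.44, the other 7 copies are called from S to EP with 1.90 to 3.80, and no point is filled from EP to JP.

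The EP libraries differed among themselves. VIT_06s0009g02810 had a mean of 9.32 CPM in EP replicates 1, 2 and 3 and of 39.7 CPM in replicates 4 and 5, and all 8 copies were 1.85 to 4.26 times higher in the latter, with no overlap. The F3'H genes were not higher there (0.893 and 0.880 times). LAR1 had a mean of 20.1 CPM in the former and 75.2 CPM in the latter, whereas LHCA2 had 576 and 637 CPM. The part of library composition in this split was not tested.

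The count of members called from S to EP was 7 with EP replicates 4 and 5 alone and 7 with replicates 1, 2 and 3 alone, the latter with both F3'H genes and 5 copies. For these parts of EP the share of all genes called was not determined, so that nothing is read from these counts. With plain library totals, which leave the low TMM factors of EP replicates 1, 2 and 3 uncorrected, 2 members were called, VIT_06s0009g02830 and VIT_06s0009g02880, and the log2 changes of the 7 copies lay between 1.91 and 3.79. Without S replicate 2 the count was 3, without S replicate 1 it was 4, without EP replicate 4 or 5 it was 5, without EP replicate 1 it was 6, and without S replicate 3 VIT_06s0009g02860 was called as well.

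From EP to JP no member was called (0 of 10 tested, background 5.54%), 1 had an unadjusted p below 0.05, and DESeq2 called 1. That member was VIT_06s0009g02860, which stood at 55.2, 34.4 and 45.1 CPM in JP, above every EP library (log2 change 1.03, standard error 0.27, edgeR adjusted p = 0.0556). It was called without EP replicate 4 or 5. VIT_06s0009g02810 stood at 43.8, 31.2 and 39.3 CPM in JP, which overlapped with EP replicates 4 and 5 and lay above replicates 1, 2 and 3. With only replicates 1, 2 and 3 in EP, 7 members were called from EP to JP, 6 of them F3'5'H copies. The share of all genes called in that run was not determined, so that nothing is read from this count.

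In JP the mean levels of the copies were 3.03 CPM (VIT_06s0009g02920) to 44.9 CPM (VIT_06s0009g02860). Relative to the mean of the 8 dark stage means, these levels were 107 times higher for VIT_06s0009g02920, 126 times for VIT_06s0009g02860 and 474 times for VIT_06s0009g02830. Those folds rest on few dark reads. The F3'H genes were 3.50 and 3.11 times higher in JP by the same measure.

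Reads of the F3'5'H copies relative to those of the F3'H genes need no scaling between libraries. Per 100 F3'H reads, the dark libraries had 0 to 12.8 F3'5'H reads, and C2 had 1.40 to 3.29 apart from 19.7 in replicate 3. S had 15.6, 31.2 and 56.1, EP had 57.5, 50.6, 61.0, 168 and 176, and JP had 217, 146 and 196. EP replicates 1, 2 and 3 thus overlapped with S replicate 3 and EP replicates 4 and 5 with JP. From C2 to JP the ratio of the families moved by 5.61 on the log2 scale, the F3'5'H sum by 6.63 and the F3'H sum by 1.02. These are reads, not transcripts per length, so the ratio is compared between stages only. In whole embryos and plants, fewer cells with a transcript and less transcript per cell cannot be told apart.

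**Figure D4:**
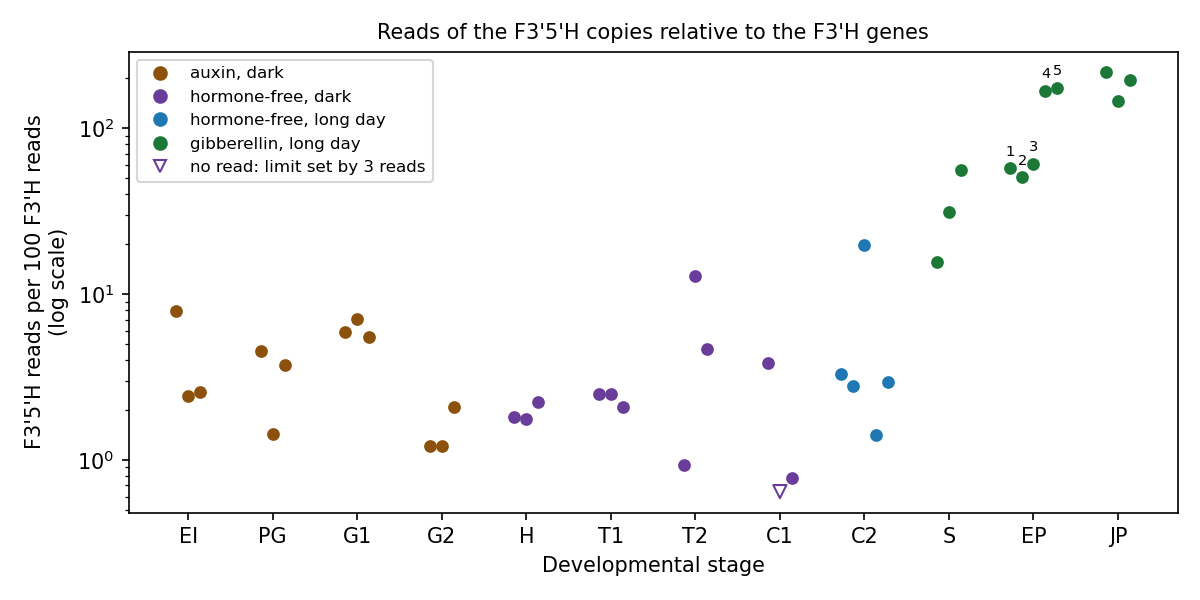
Reads of the 8 F3'5'H copies per 100 reads of the F3'H genes in each library, by stage, on a log axis, with the EP replicates numbered and an open triangle for the limit of 0.642 in the library without F3'5'H reads. All S, EP and JP libraries lie above 15, and the dark libraries below 13.

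The copies did not share the F3'5'H reads in the same way at each stage. VIT_06s0009g02860 took 85.7% to 93.1% of the F3'5'H reads in H, of 29 to 35 reads per library, and 66.7% to 86.7% in T1, of 6 to 15 reads. In S it took 49.4% to 62.3%, in EP 18.7% to 32.4% and in JP 28.0% to 30.9%, so that S did not overlap with EP or JP. VIT_06s0009g02880, in contrast, took 0.775% to 1.57% of the reads in S, and 2.53% to 6.22% in EP and JP. No test was run on these shares.

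**Figure D5:**
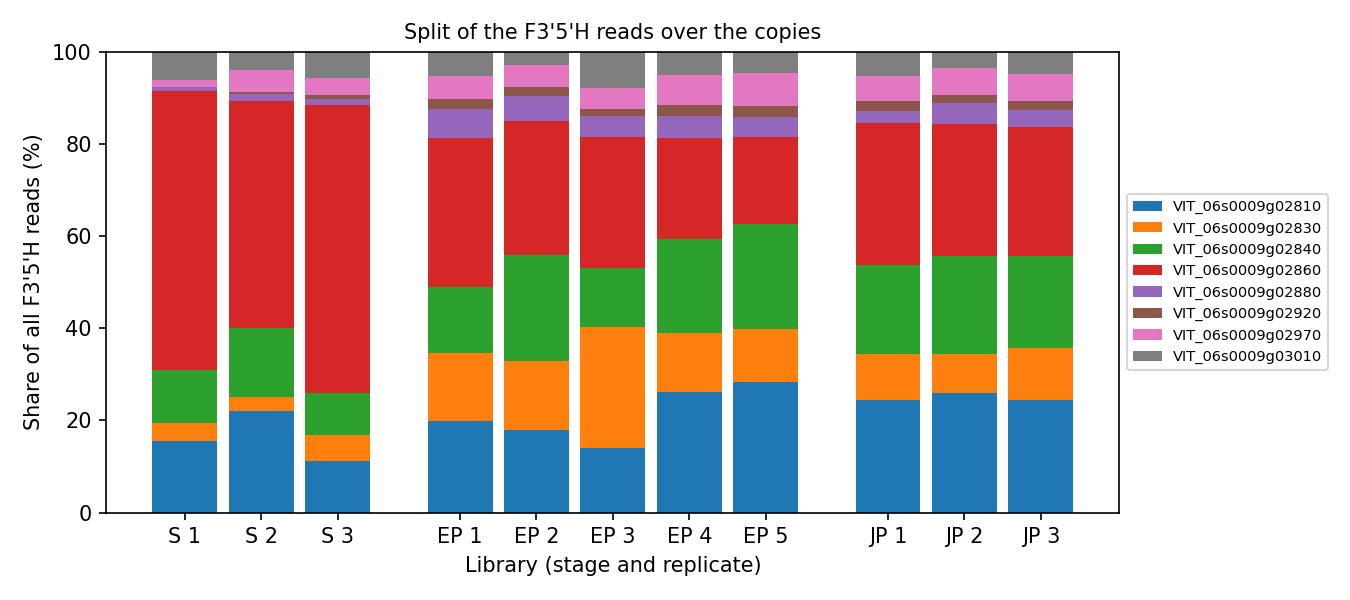
Share of each F3'5'H copy in all F3'5'H reads (%) in the S, EP and JP libraries, stacked to 100. VIT_06s0009g02860 makes up 49.4% to 62.3% in S and no more than 32.4% in any EP or JP library.

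Phases were also compared in a model of all 40 libraries. Both F3'H genes were higher in the mean of the hormone-free dark stages (H, T1, T2, C1) than in that of the auxin stages. The differences were 0.46 and 0.61 on the log2 scale (standard errors 0.18 and 0.18, edgeR quasi-likelihood test, adjusted p = 0.0341 and 0.00485). VIT_17s0000g07200 had means of 33.2 CPM in H and 32.4 CPM in T2, but of 12.96 CPM in T1 and 15.7 CPM in C1. T1 and C1 thus lay within the range of its auxin stage means, 11.9 to 20.5 CPM. VIT_17s0000g07210 had means of 7.002 and 7.69 CPM in H and T2, but of 3.48 and 3.51 CPM in T1 and C1. Its auxin stage means were 2.72 to 3.98 CPM. Of the 8 F3'5'H copies 0 were called, against 22.8% of all genes tested called higher. None of these copies had an unadjusted p below 0.05, and DESeq2 called none. Their levels were near 0 in both groups of stages, and the difference between the families was not tested. The call of VIT_17s0000g07200 was lost with plain library totals and without EI replicate 1, PG replicate 1, G1 replicate 2, G2 replicate 3, H replicate 2, T1 replicate 2, T2 replicate 2 or C1 replicate 1 or 3.

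In the mean of the 4 long-day stages all 10 members were higher than in the mean of the 8 dark stages, against 36.5% of all genes tested. Copies with few dark reads entered this test through their long-day libraries, so that nothing is read from this count against the background. When C2 alone was set against the hormone-free dark stages, 8 members were called. The share of all genes called in that contrast was not determined, so that nothing is read from this count. VIT_06s0009g02860 overlapped between C2 and the dark libraries. In VIT_17s0000g07200, C2 (20.6 to 42.9 CPM) overlapped with H (28.8 to 38.5 CPM) and T2 (26.7 to 42.8 CPM). In the mean of the long-day stages the F3'H genes were higher than in that of the dark stages by 1.65 and 1.64 (standard error 0.14 for both, edgeR adjusted p = 2.62e-12 and 2.2e-12). With plain library totals VIT_17s0000g07200 was higher by 0.82 (adjusted p = 1.84e-05), while the median of all genes moved to -0.85, and the difference from the median was 1.67. Fitted changes of the F3'5'H copies are not given, since they rest on few dark reads. VIT_06s0009g02860, the most read copy in the dark, was at most 0.772 CPM in any dark library and at least 6.58 CPM in S, EP and JP.

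Of the other flavonoid genes, 8 could be named or annotated from the tables of the study at hand: LAR1, FAOMT (VIT_01s0010g03510), an O-methyltransferase of flavonoids that acts on B-ring hydroxyl groups, MYBC2-L1 (VIT_01s0011g04760), a MYB repressor of the flavonoid pathway, and 5 genes annotated with flavonoid metabolic process. They were called higher at different stages. LAR1 rose by 4.08 on the log2 scale from C1 to C2 (standard error 0.64, edgeR quasi-likelihood test, adjusted p = 0.0182), where its C2 libraries stood at 5.46 to 21.0 CPM and its C1 libraries at 0.543 to 1.19 CPM. It rose again, by 1.79, to S (adjusted p = 0.0175). The call from C1 to C2 was lost without C1 replicate 3 or C2 replicate 1 or 2, with the closest C2 replicates summed or with the replicate number as a block, and the call to S without S replicate 2 or 3.

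FAOMT rose from C2 to S by 2.16 (standard error 0.36, edgeR adjusted p = 0.00378), to 3.71, 4.42 and 10.2 CPM, above every C2 library. It rose by a further 1.71 to EP (standard error 0.34, adjusted p = 0.00559), where it stood at 15.9995 to 21.9 CPM with no gap between EP replicates 1, 2 and 3 and replicates 4 and 5. MYBC2-L1 rose by 2.75 from S to EP (standard error 0.45, adjusted p = 0.00246) and by 1.66 from EP to JP (standard error 0.29, adjusted p = 0.0176), where it reached 15.3, 13.7 and 15.2 CPM. The last call was lost when any JP replicate was left out, and with plain library totals the calls of FAOMT and MYBC2-L1 to EP and of MYBC2-L1 to JP were lost. Its level was lower in the hormone-free than in the auxin dark stages (log2 change -2.80, standard error 0.44, adjusted p = 3.29e-06).

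VIT_13s0067g03820, one of the genes annotated with flavonoid metabolic process, followed the F3'H genes at the heart stage. It stood at 140, 167 and 120 CPM in H against 37.3, 38.0 and 36.8 CPM in G2 (log2 change 1.88, standard error 0.14, edgeR adjusted p = 0.000391), and at 27.8, 2.71 and 29.6 CPM in T1 (log2 change -2.84, standard error 0.76, adjusted p = 0.0295). The fall to T1 was no longer called when any library but T1 replicate 2 was left out. Of the 8 pathway genes, 5 were tested from C2 to S by the same test. Of these, 3 rose and 1 fell (16.1% and 11.5% of all genes tested). From S to EP 2 rose among 6 tested, where 16.1% of all genes tested rose, and none fell. The pathway counts were 2 higher and 2 lower from G2 to H (27.6% and 28.9% of all genes) and 1 higher and 2 lower from H to T1 (17.5% and 14.2%), each among 5 tested. VIT_04s0023g02090 and VIT_12s0028g01880 had too few reads to be tested.

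The 7 other identifiers that lie between the F3'5'H copies were mostly unread. In the test over the 12 stages 1 of them, VIT_06s0009g02820, had enough reads, and it differed (adjusted p = 1.42e-07), with 0 reads in S, 142 in EP and 115 in JP over the libraries of each stage. Between successive stages VIT_06s0009g02820 alone had enough reads to be tested, and from EP to JP only. It was not called there (log2 change 1.62, standard error 0.62, edgeR adjusted p = 0.16). On either side of the F3'H genes, VIT_17s0000g07190 rose from PG to G1 (log2 change 2.15, standard error 0.47, edgeR adjusted p = 0.0229), where the F3'H genes were not called, and VIT_17s0000g07220 rose from G2 to H (0.79, standard error 0.22, adjusted p = 0.0214).

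Likeness of course was measured by Pearson's r of log2 CPM over the 12 stage means, among 20439 genes with a mean of at least 1 CPM. For VIT_17s0000g07200 the gene most alike was VIT_17s0000g07210 (r = 0.99), followed by VIT_07s0005g02230 (0.97) and VIT_01s0011g04720 (0.96), which have no name in the sources used here. For VIT_06s0009g02860 they were VIT_11s0037g01170 (0.98), VIT_06s0009g03010 (0.98) and VIT_17s0000g08530 (0.97). Across families VIT_17s0000g07200 and VIT_06s0009g02860 had r = 0.87. The 12 points share libraries and scaling factors, and these values are a description.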

How the data were processed

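RNA of somatic embryos and regenerated plants was sequenced in 40 libraries. The authors depleted rRNA, sequenced read pairs on a NextSeq instrument, aligned these to the 12X assembly with BBMap and deposited raw counts for each open reading frame. SAMtools 1.11 is among the tools in the submitters' processing notes. The sources used here do not give whether multi-mapping reads were counted or strand was used.

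Members and gene lists were chosen with earlier results of these data known. Named genes were all 10 members, the 8 pathway genes annotated in the tables at hand, LHCA2, the identifiers between or beside the members, and the 2 most alike genes per family lead. Libraries were assigned to stages by their titles. Successive stages were compared with edgeR 4.0.16 (limma 3.58.1, R 4.3.3) by the quasi-likelihood test on raw counts of both stages, with TMM, filterByExpr and Benjamini-Hochberg adjustment over all genes tested, at a threshold of 0.05. The 12 stages and the phases were tested in one model of all libraries. Standard errors are the log2 change divided by the square root of F. Levels were CPM with TMM factors, and total counts set their precision. Figures were drawn with matplotlib 3.10.9.

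Alternatives were DESeq2 1.42.0, its size factors, no filter, one model of all libraries, the replicate number as a block, the closest replicates of C2 and EP summed, and leaving out each library. Plain library totals and parts of EP were added after seeing the data. Replicates were biological according to the study, and every pair of replicates differed beyond counting noise (chi-square per degree of freedom at least 8.45). No identifier of the members matched the RefSeq gene list of ASM3070453v1, so that no sequences, lengths or coordinates are given.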

Additional observations from a re-analysis of the deposited data

Results flagged for a closer look

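Of 44 sets of 5 libraries examined in C2 and EP, 8 had a library far from the other 4. The gap to the next library was above 0.71 of the range. This limit holds for normally spread values. Several sets held values at or near 0, so that no chance rate is given. C2 replicate 3 accounted for 6 of the 8. It stood at 0.866 CPM for VIT_06s0009g02830, where the other C2 libraries reached 0.147 CPM at most, at 0.255 CPM for VIT_06s0009g02880 (others up to 0.0665 CPM), at 0.560 CPM for VIT_06s0009g02920 (others up to 0.0492 CPM) and at 0.407 CPM for VIT_06s0009g03010 (others up to 0.0886 CPM). Its F3'5'H sum was 4.84 CPM, against 0.728 to 1.72 CPM, and it had 19.7 F3'5'H reads per 100 F3'H reads, against 1.40 to 3.29. These sets share reads of 1 library and are not independent. More genes were read in this library as a whole. Its pairs with other C2 libraries had 25411 to 25737 genes with at least 10 summed reads, against 22694 to 23589 in the remaining C2 pairs. Its TMM factor was 1.08, against 0.652 to 0.831. Whether the excess of the F3'5'H copies goes beyond this was not tested. LHCA2 in C2 replicate 3 was 10.997 CPM, within the 1.28 to 11.6 CPM of the other C2 libraries.

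EP replicate 5 stood at 9.85 CPM for VIT_18s0072g00440, a gene annotated with flavonoid metabolic process, against 3.69 to 5.42 CPM in the other EP libraries. EP replicate 4 stood at 700.03 CPM for LHCA2, against 569 to 584 CPM.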

How the results depend on the processing

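Counts of members called that moved by over 1.5 times were as follows. DESeq2 gave 2 between T1 and T2, 3 from C1 to C2, 7 from C2 to S and 1 from EP to JP. One model of all libraries gave 1 between H and T1, 5 between T1 and T2, 3 from T2 to C1 and 6 from C1 to C2. Plain library totals gave 0 from C1 to C2, 2 from S to EP and 1 for the hormone-free against the auxin dark stages, and summing the closest replicates gave 0 from C1 to C2. With EP replicates 1, 2 and 3 alone, 7 were called from EP to JP. With the replicate number as a block, 0 were called from C1 to C2 and 6 from EP to JP. Numbers did not pair the libraries (in 0 of 11 transitions did every same-numbered pair correlate above 0.1, and 14 of 33 libraries correlated best with their own number). Smaller moves were 9 from S to EP and 3 from C2 to S with the block, 6 from C2 to S in one model, 5 without the filter on low counts, 3 from C2 to S and 2 from G2 to H with a fold change above 2 as well, 3 between H and T1 with plain library totals, and 8 for C2 against the hormone-free dark stages in place of 10 for long day against dark. The cause of these differences was not tested. The share of all genes called was not determined in these runs or in those without single libraries. Nothing about the members is therefore read from these counts.

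Leaving out each library gave 0 to 0 members from EI to PG, 0 to 0 from PG to G1, 0 to 1 from G1 to G2, 3 to 3 from G2 to H, 1 to 3 between H and T1, 0 to 3 between T1 and T2, 0 to 0 from T2 to C1, 0 to 3 from C1 to C2, 2 to 5 from C2 to S, 3 to 8 from S to EP and 0 to 1 from EP to JP. It gave 10 to 10 over the 12 stages and for long day against dark, and 1 to 2 for the hormone-free against the auxin dark stages. Of 720 alternative values of single genes, 607 kept their call, 113 lost it and 0 turned direction. Copies with few reads in the dark could not be tested there.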
